A study of Mus musculus with 6 samples.

Results

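The proteasome genes described here are the 49 rows of the deposited count table whose symbol begins with Psm, followed by a letter from a to g, a number and at most 1 further letter. They are 49 of 57010 genes in the table and cover the core particle, its regulatory caps, the activators, the inhibitor and the assembly chaperones. The rule used names only and no measured value. The data are RNA counts from immunoprecipitates made with an antibody to PNMA4, a capsid-like protein whose mouse gene is named Moap1, from dense particulate fractions of mouse testis lysate. Each of the 6 libraries came from a pool of 8 testes of mice aged 3 months. The first group holds 3 libraries of wild type (C57BL/6J) mice. The second group lacks PNMA4 and holds 3 libraries, of which 2 (replicates 1 and 2) carry a knockout of Pnma4 alone. Replicate 3 carries knockouts of Pnma1 and Pnma4 and is called the double knockout below. The labels place the double knockout in the second group, and this genotype has 1 library. The strain background of the knockouts is not known from the labels. The libraries lacking PNMA4 hold no target of the antibody, so they give the background of the immunoprecipitation measured the same way.

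The proteasome is the protease that degrades proteins marked with ubiquitin. Its core particle is a barrel of alpha rings, which gate the channel, around beta rings, which carry the cleaving sites. A regulatory particle of ATPases and non-ATPase subunits binds ubiquitin chains, unfolds the protein and feeds it into the barrel, and other activators open the barrel without ubiquitin. Testis is known for its own variant, in which the alpha subunit Psma8 takes the place of Psma7 in meiotic and later germ cells, and for a high level of the activator Psme4, which is known for the removal of acetylated histones in spermatids.

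The sequences just upstream of 4 of these genes are shown first, because these genes took the most reads (Psme4 and Psmd2) or had the lowest p in the comparisons below (Psma6 and Psmb5). Each window runs from 250 bases before to 50 bases after a RefSeq start in GRCm38.p6 and reads 5′ to 3′ on the strand of the gene. Capitals mark the letters TGACNNNGC, the core of the antioxidant response element through which Nfe2l1 is known to drive proteasome genes, and CCGGAAG, a core of ETS family sites, each searched on both strands.
Psme4 chr11:30771525-30771824 (+): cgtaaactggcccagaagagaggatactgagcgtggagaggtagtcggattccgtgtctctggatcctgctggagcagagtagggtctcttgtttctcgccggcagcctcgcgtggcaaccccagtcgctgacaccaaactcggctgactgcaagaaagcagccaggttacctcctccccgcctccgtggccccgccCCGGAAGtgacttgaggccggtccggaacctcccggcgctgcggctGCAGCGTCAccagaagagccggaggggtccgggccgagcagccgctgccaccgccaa
Psmd2 chr16:20651402-20651701 (+): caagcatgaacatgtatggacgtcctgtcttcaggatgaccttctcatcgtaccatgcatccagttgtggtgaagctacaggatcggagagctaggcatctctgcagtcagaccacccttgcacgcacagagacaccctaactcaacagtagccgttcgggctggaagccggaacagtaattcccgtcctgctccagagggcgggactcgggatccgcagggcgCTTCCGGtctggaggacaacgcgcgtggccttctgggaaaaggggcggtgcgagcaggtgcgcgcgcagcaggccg
Psma6, the later of its 2 listed starts, chr12:55398575-55398874 (+): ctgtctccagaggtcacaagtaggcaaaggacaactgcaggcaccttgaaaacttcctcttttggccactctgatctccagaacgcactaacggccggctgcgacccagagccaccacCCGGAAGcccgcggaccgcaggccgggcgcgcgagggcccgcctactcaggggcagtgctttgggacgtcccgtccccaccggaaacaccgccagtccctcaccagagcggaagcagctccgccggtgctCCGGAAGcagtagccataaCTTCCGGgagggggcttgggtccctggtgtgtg
Psmb5 chr14:54617946-54618245 (-): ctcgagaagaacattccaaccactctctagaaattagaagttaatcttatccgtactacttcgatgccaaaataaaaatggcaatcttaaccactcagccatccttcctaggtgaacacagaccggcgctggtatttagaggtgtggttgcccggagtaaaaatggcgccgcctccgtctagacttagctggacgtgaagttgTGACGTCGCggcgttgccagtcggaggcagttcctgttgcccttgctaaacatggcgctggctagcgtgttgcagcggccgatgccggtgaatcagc
The Psme4 window held 1 match to each motif, Psmd2 held 1 ETS match, the later Psma6 window held 3 ETS matches, while the window at its earlier start held 0 matches to either motif, and Psmb5 held 1 antioxidant response element match. The RefSeq promoter table held 41 of the 49 members. Of these, 14 (34.1%) had CCGGAAG, against 9.93% of 27025 genes with a window of the same length. The match was in 1 of 11 core particle genes and in 9 of 14 regulatory particle genes. TGACNNNGC was in 6 members (14.6%), near the 14.0% of all genes. The GC box GGGCGG was in 23 members (56.1%, against 38.2%), CCAAT in 14 (34.1%, against 41.1%), and TGACGTCA, the cAMP response element, in 0 members (2.03% of all genes). The last of these contains the shorter form TGACGT, found in 4 members (9.76%, against 8.37%). In all, 10 motifs were searched, and each of the other 4 was in 1 or 2 members. A match is a run of letters and not a measured site, and a window without one says nothing about a factor.

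Total counts per library ran from 3138657 to 6367930, and the proteasome genes took 69077 reads in all, or 0.156% to 0.253% of a library. Levels below are CPM, the count scaled to a common library size after correction by TMM, edgeR's method of matching the bulk of genes between libraries. No transcript lengths were used, so a level is compared between libraries for a gene and not between genes. The deleted genes matched the labels, with Moap1 at 7, 26 and 27 reads in wild type and 0 in each library lacking PNMA4, and Pnma1 at 0 reads in the double knockout alone. All 10 spermatocyte and all 10 spermatid markers had reads, with summed levels of 1230 to 1736 CPM and 2058 to 2904 CPM. The double knockout stood apart in composition, with 57.5% of its counts in the ribosomal RNA-like gene Rn18s-rs5 against 27.3% to 36.1% in the other 5 libraries. Wild-type replicate 2 stood apart as well, with 0.751% of its counts at Lars2, a mitochondrial tRNA synthetase gene, against 4.34% to 10.8% in the others. Reads at Lars2 were set aside together with those of Rn18s-rs5 in a scaling below, and whether they come from the synthetase message was not tested. The chi-square per gene of wild-type replicate 2 was 49.3 and 47.4 against the other wild-type libraries, which gave 12.5 between them. The 2 Pnma4 knockouts gave 18.8, and the double knockout gave 38.05 to 142.6 against the other 5 libraries. For 10 markers of Leydig cells, the summed level of the double knockout was 469 CPM against 193 to 262 CPM in the other 5 libraries. For 12 Sertoli cell markers, that of the double knockout was 503 CPM against 218 to 341 CPM. These are RNA counts of immunoprecipitates from dense particulate fractions, so a marker sum does not measure the make-up of the testis. Fewer cells of a type, less RNA per cell and a difference in the fraction or precipitate cannot be told apart in them.

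No proteasome gene passed the test between wild type and the group lacking PNMA4, while the log2 fold changes of all 15 core particle genes lay below 0. Of the 49 members, 41 passed the filter on low counts and were tested. None was called by edgeR's quasi-likelihood test at an adjusted p of 0.05 (the lowest adjusted p was 1.00), where 0.0596% of all 13413 genes tested were called. DESeq2 and limma-voom also called 0 members. At an unadjusted p under 0.05, edgeR gave 0 members higher and 1 lower in wild type, against 1.27% and 1.65% of all genes, while DESeq2 gave 1 and limma-voom 5, all lower. The log2 fold change of wild type over lacking PNMA4 was below 0 for 34 of the 41, with a median of −0.19, where 48.0% of all genes were below 0 with a median of 0.01. The median of the members was −0.12 without wild-type replicate 2, −0.13 without the double knockout and −0.08 without both. The single member lower at an unadjusted p under 0.05 became 0 without the double knockout, 2 without wild-type replicate 1 and 8 without wild-type replicate 3. It became 3 and 7 without replicates 1 and 2 of the Pnma4 knockouts. The share of all genes at that p is given for the edgeR fit of all libraries only. The counts from the other fits therefore cannot be read as particular to the members. Without TMM factors the median log2 fold change of the members was 0.14, where that of all genes was 0.32. Such a change of scaling shifts all genes by about the same amount. The groups did not overlap for 2 members, both lower in wild type (Psma7 and Psmb7), a share near the 3.41% of all genes that did so, and for 0 members with wild type higher (3.28% of all genes).

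**Figure D1:**
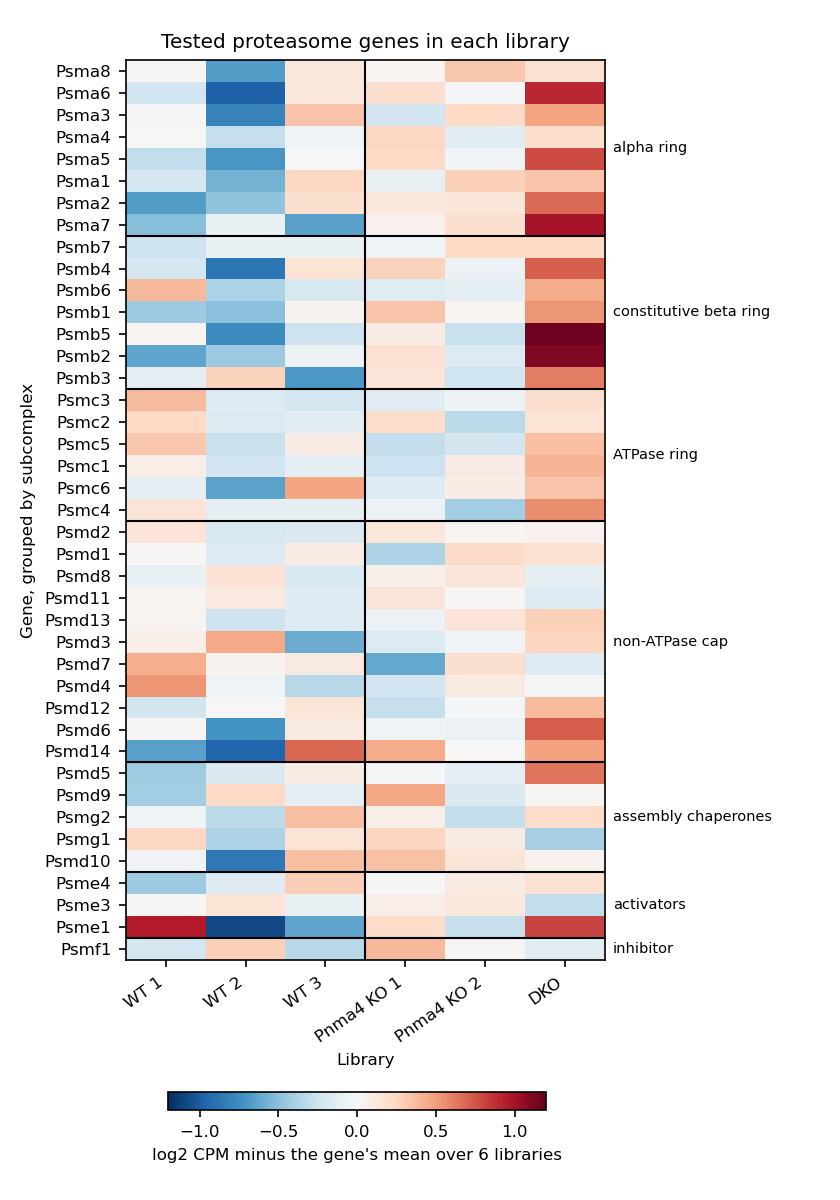
Levels of the 41 tested proteasome genes in each library (columns; WT, wild type; KO, knockout; DKO, double knockout), as log2 CPM minus the mean of that gene over the 6 libraries, with genes in rows grouped by subcomplex. Of the 15 alpha and constitutive beta ring genes, 10 are lowest in wild-type replicate 2 and 13 are highest in the double knockout. Of the 11 non-ATPase cap genes, 4 are lowest in wild-type replicate 2 and 3 are highest in the double knockout.

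The alpha ring forms the outer rings of the barrel, and all 8 of its genes were tested. Psma8, the testis alpha subunit, stood at 50.7, 31.7 and 55.2 CPM in wild type, at 51.1 and 63.2 CPM in the Pnma4 knockouts and at 57.2 CPM in the double knockout. Wild-type replicate 2 was the lowest of these and the groups overlapped. The means were 45.9 ± 12.4 and 57.1 ± 6.03 CPM (SD, n = 3 each), with a log2 fold change of −0.33 (standard error 0.22, edgeR adjusted p = 1.00), and −0.11 without wild-type replicate 2. Psma6, a subunit of the ring in all tissues, had the lowest p of any member. It stood at 18.7, 11.1 and 23.8 CPM in wild type, at 25.1 and 21.4 CPM in the Pnma4 knockouts and at 40.8 CPM in the double knockout. The double knockout was the highest of the 6 and wild-type replicate 2 the lowest, and wild-type replicate 3 lay above a Pnma4 knockout. The log2 fold change was −0.69 (standard error 0.28, unadjusted p = 0.0209, edgeR adjusted p = 1.00), −0.38 without the double knockout and −0.42 without wild-type replicate 2. Psma7, the subunit whose place Psma8 takes, had 9, 25 and 14 reads in wild type and 11, 27 and 20 reads in the libraries lacking PNMA4. Its levels were 2.37, 3.20 and 2.15 CPM against 3.49, 3.86 and 6.69 CPM, so that the groups did not overlap, at a log2 fold change of −0.80 (standard error 0.39, edgeR adjusted p = 1.00). Psma5 stood at 5.26, 3.97 and 6.45 CPM against 7.62, 6.29 and 11.0 CPM, with a log2 fold change of −0.64 (standard error 0.32). Without the double knockout, the values of Psma7 and Psma5 were −0.50 and −0.40. The 4 other alpha genes had log2 fold changes between −0.56 (Psma2) and −0.21 (Psma4).

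The constitutive beta ring holds the cleaving subunits Psmb5, Psmb6 and Psmb7 and 4 subunits without such a site, and all 7 were tested. Psmb5, the chymotrypsin-like protease and the main target of proteasome inhibitor drugs, stood at 5.78, 3.33 and 4.76 CPM in wild type. It stood at 6.03 and 4.71 CPM in the Pnma4 knockouts and at 12.7 CPM in the double knockout, which was thus over all others while the remaining libraries overlapped. Its log2 fold change was −0.73 (standard error 0.37, edgeR adjusted p = 1.00), and −0.22 without the double knockout. Psmb2, a structural subunit, was highest in the double knockout too, with 2.89, 3.33 and 4.30 CPM in wild type, 5.08 and 4.00 CPM in the Pnma4 knockouts and 9.70 CPM in the double knockout (log2 fold change −0.75, its standard error 0.38, edgeR adjusted p = 1.00). Its log2 fold change was −0.32 without the double knockout. Psmb1, another structural subunit, stood at 6.83, 6.52 and 9.53 CPM against 11.7, 9.43 and 13.4 CPM, and the groups touched only through wild-type replicate 3 and the second Pnma4 knockout. Psmb7, the trypsin-like protease and the beta gene with the most reads, stood at 17.6, 19.7 and 19.8 CPM in wild type against 20.3, 24.7 and 24.8 CPM in the libraries lacking PNMA4. Its groups did not overlap, and the difference was small, with a log2 fold change of −0.29 (standard error 0.22, edgeR adjusted p = 1.00). Psmb4, Psmb6 and Psmb3 had log2 fold changes of −0.57, −0.13 and −0.28.

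The 15 genes of both rings had log2 fold changes of the same sign in this comparison, and none passed the test. All 15 had a log2 fold change below 0, with a median of −0.56, while 12 of the 17 regulatory particle genes did, with a median of −0.05. The core particle count was 14 of 15 without the double knockout (median −0.32), 14 of 15 without wild-type replicate 2 (median −0.42) and 13 of 15 without both libraries (median −0.13). Without TMM factors 10 of 15 were below 0, where 13.0% of all genes were. All 15 then lay below the median of all genes, which was 0.315. The summed level of the core particle, a grouping made after the data were seen, was 169, 125 and 190 CPM in wild type, 192 and 199 CPM in the Pnma4 knockouts and 260 CPM in the double knockout. Every wild-type library thus lay below every library lacking PNMA4, by a narrow margin for wild-type replicate 3. The difference was −55.8 CPM (two-sided exact permutation p = 0.1, the smallest p that 3 against 3 libraries can give), and −34.3 CPM without the double knockout. It was −13.1 CPM with library totals and no factors (exact permutation p = 0.6) and −111 CPM with totals that leave out Rn18s-rs5 and Lars2 (exact permutation p = 0.1). The totals without these genes are smaller in every library (1611818 to 4399318 counts), which makes each CPM value larger. The −111 CPM is therefore not a wider gap in relative terms by itself, and its size cannot be set against −55.8 CPM. The constitutive beta ring alone stood at 57.1 ± 5.56 CPM in wild type against 77.6 ± 17.5 CPM in the libraries lacking PNMA4 (SD, n = 3 each, exact permutation p = 0.1, adjusted p = 0.562 over 9 sums), a difference of −20.4 CPM, or −10.4 CPM without the double knockout. The alpha ring stood at 104 ± 27.4 and 139 ± 20.5 CPM (SD, n = 3 each, exact permutation p = 0.2, adjusted p = 0.562). The markers of Leydig and Sertoli cells given above were high in the double knockout as well, and their part in these values was not tested.

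**Figure D2:**
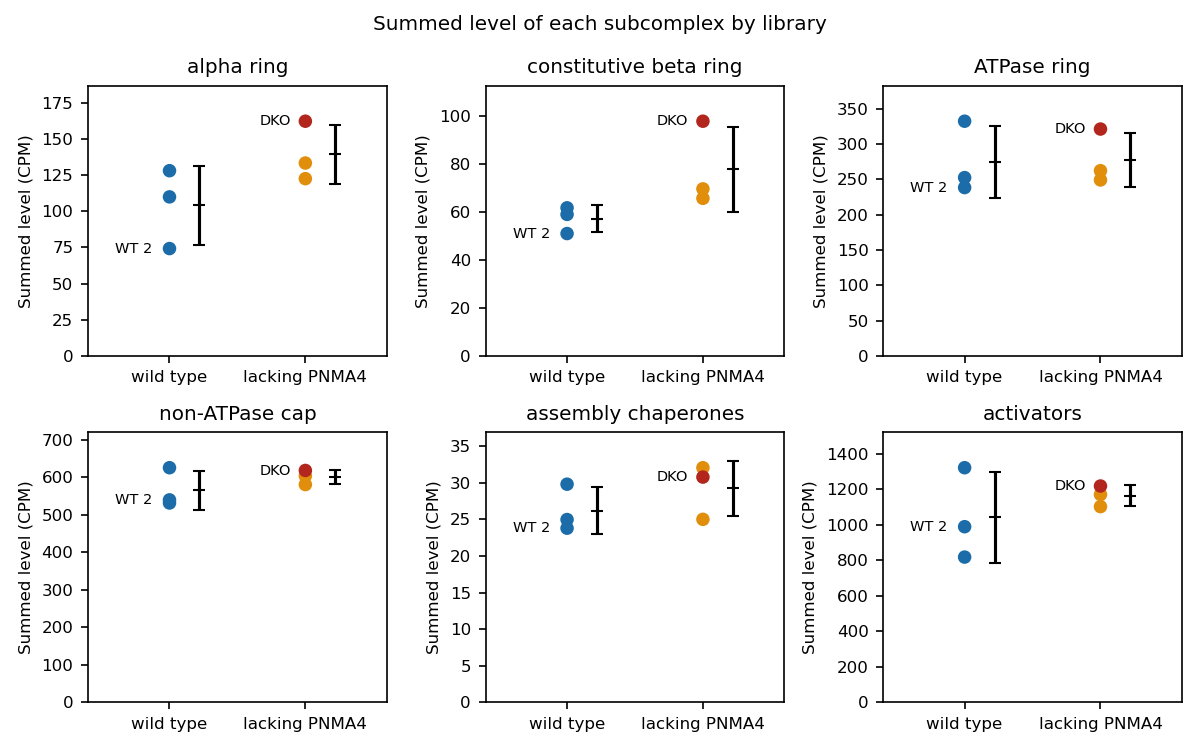
Summed level in CPM of the genes of each subcomplex, with 1 point per library (blue, wild type; orange, Pnma4 knockout; red, double knockout, marked DKO) and bars for the mean ± SD of 3 libraries. In the beta ring the wild-type points end at 61.6 CPM and the others begin at 65.6 CPM, and in the other 5 subcomplexes the groups overlap.

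The inducible beta subunits Psmb8, Psmb9 and Psmb10, which replace Psmb5, Psmb6 and Psmb7 in cells exposed to interferon, were at 0 to 3 reads in every library, and so was Psmb11 of the thymic cortex. Psmb8 had 0, 1 and 1 reads in wild type and 2, 0 and 0 reads in the 3 libraries lacking PNMA4. Psmb9 had 2, 1 and 1 reads and 0, 0 and 3 reads, and Psmb10 had 1, 2 and 2 reads and 2, 3 and 1 reads. Psmb11 had 3 libraries at 1 read and 3 at 0. A count of 0 allows up to 3 reads, or 0.384 to 1.00 CPM depending on the library, for counting error only. None of these 4 genes was tested, and a difference between groups was not detectable at this depth. Summed over 10 leukocyte and macrophage markers, of which 4 were tested, the level was 12.1 to 23.4 CPM.

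The ATPase ring unfolds the substrate, and 4 of its 6 genes had a log2 fold change below 0, all close to 0. Psmc3, the ATPase with the most reads here, stood at 180, 125 and 119 CPM in wild type against 126, 133 and 158 CPM in replicates 1 to 3 lacking PNMA4. Wild-type replicate 1 was the highest and replicate 3 the lowest, so the wild-type libraries spanned the whole range. The log2 fold change was 0.02 (standard error 0.21, edgeR adjusted p = 1.00), and it was −0.19 without wild-type replicate 1. Psmc2 stood at 81.0, 61.1 and 62.5 CPM against 79.7, 54.9 and 76.9 CPM, again overlapping. The log2 fold changes of the ring ran from −0.19 (Psmc1) to 0.09 (Psmc5), and the 95% interval of each of the 6 lay within 1 of 0. The sum over the ring was 275 ± 50.7 CPM in wild type against 278 ± 38.4 CPM in the libraries lacking PNMA4 (SD, n = 3 each, exact permutation p = 1.0).

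The non-ATPase subunits of the cap hold the receptors for ubiquitin and the enzyme that cuts ubiquitin off, and 11 were tested. Psmd2, a large scaffold that docks ubiquitin-like domains, stood at 325, 255 and 258 CPM in wild type against 319, 296 and 303 CPM in replicates 1 to 3 lacking PNMA4. The highest and the lowest of these were both wild type, and the log2 fold change was −0.13 (standard error 0.21, edgeR adjusted p = 1.00). Psmd7, the partner of the ubiquitin-cutting subunit, had the highest log2 fold change of all members at 0.33 (standard error 0.24, edgeR adjusted p = 1.00), with 34.2, 26.0 and 27.2 CPM against 16.5, 28.9 and 22.7 CPM. Psmd14, the ubiquitin-cutting subunit itself, was the most uneven of them, with 4.73, 3.84 and 12.0 CPM in wild type against 10.2, 7.43 and 10.4 CPM in the libraries lacking PNMA4 (log2 fold change −0.40, its standard error 0.35). Psmd4, a ubiquitin receptor, had a log2 fold change of 0.11, and Psmd1, the other large scaffold, one of −0.05. For 10 of the 11, the 95% interval lay within 1 of 0. The sum was 565 ± 52.0 and 601 ± 18.9 CPM (SD, n = 3 each, exact permutation p = 0.4, adjusted p = 0.562).

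Psme4 took more reads than any other proteasome gene in all 6 libraries. This activator, a single large protein that caps the barrel and is abundant in testis, had 2906, 7291 and 8282 reads in wild type, 3295 and 7800 reads in the Pnma4 knockouts and 3510 reads in the double knockout (ENSMUSG00000040850, chromosome 11, 30771775 to 30881150 in GRCm38.p6). Its levels were 764, 933 and 1272 CPM in wild type against 1046, 1114 and 1174 CPM in replicates 1 to 3 lacking PNMA4, so that wild type held both the lowest and the highest library. The means were 990 ± 259 and 1111 ± 64.1 CPM (SD, n = 3 each), with a log2 fold change of −0.17 (standard error 0.24, edgeR adjusted p = 1.00, 95% interval −0.65 to 0.32). It was −0.02 without wild-type replicate 1 and −0.38 without wild-type replicate 3. Psme4 reads were 37.9% to 53.8% of all proteasome reads in wild type and 46.8% to 48.5% in the libraries lacking PNMA4, a share of reads that is not corrected for the length of the message. Psme3, the nuclear activator, stood at 49.2, 54.4 and 45.6 CPM against 51.4, 53.0 and 39.5 CPM (log2 fold change 0.05, its standard error 0.21). Psme1, a subunit of the interferon-induced activator, had 7 to 14 reads per library and barely passed the filter, and its partner Psme2 had 2 to 9 reads and did not. The copy Psme2b had 0 or 1 read. Psmf1, an inhibitor that binds the barrel, stood at 42.6, 60.1 and 39.2 CPM against 64.7, 49.9 and 44.8 CPM, with a log2 fold change of −0.16 (standard error 0.22, edgeR adjusted p = 1.00).

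The assembly chaperones help to build the rings and leave the finished particle. Psmd5, Psmd9 and Psmd10 serve the ATPase ring and Psmg1 to Psmg4 the core particle. Of the 7, 5 were tested, with log2 fold changes from −0.32 (Psmd5) to 0.04 (Psmg2). Psmd5 stood at 5.26, 6.27 and 7.53 CPM in wild type, at 6.98 and 6.57 CPM in the Pnma4 knockouts and at 11.0 CPM in the double knockout, the highest of the 6, and its log2 fold change was −0.07 without that library. Psmg3, with 2 to 6 reads, and Psmg4, with 0 to 3 reads, were not tested. The sum over the chaperones was 26.2 ± 3.19 CPM in wild type against 29.3 ± 3.75 CPM in the libraries lacking PNMA4 (SD, n = 3 each, exact permutation p = 0.2, adjusted p = 0.562).

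**Figure D3:**
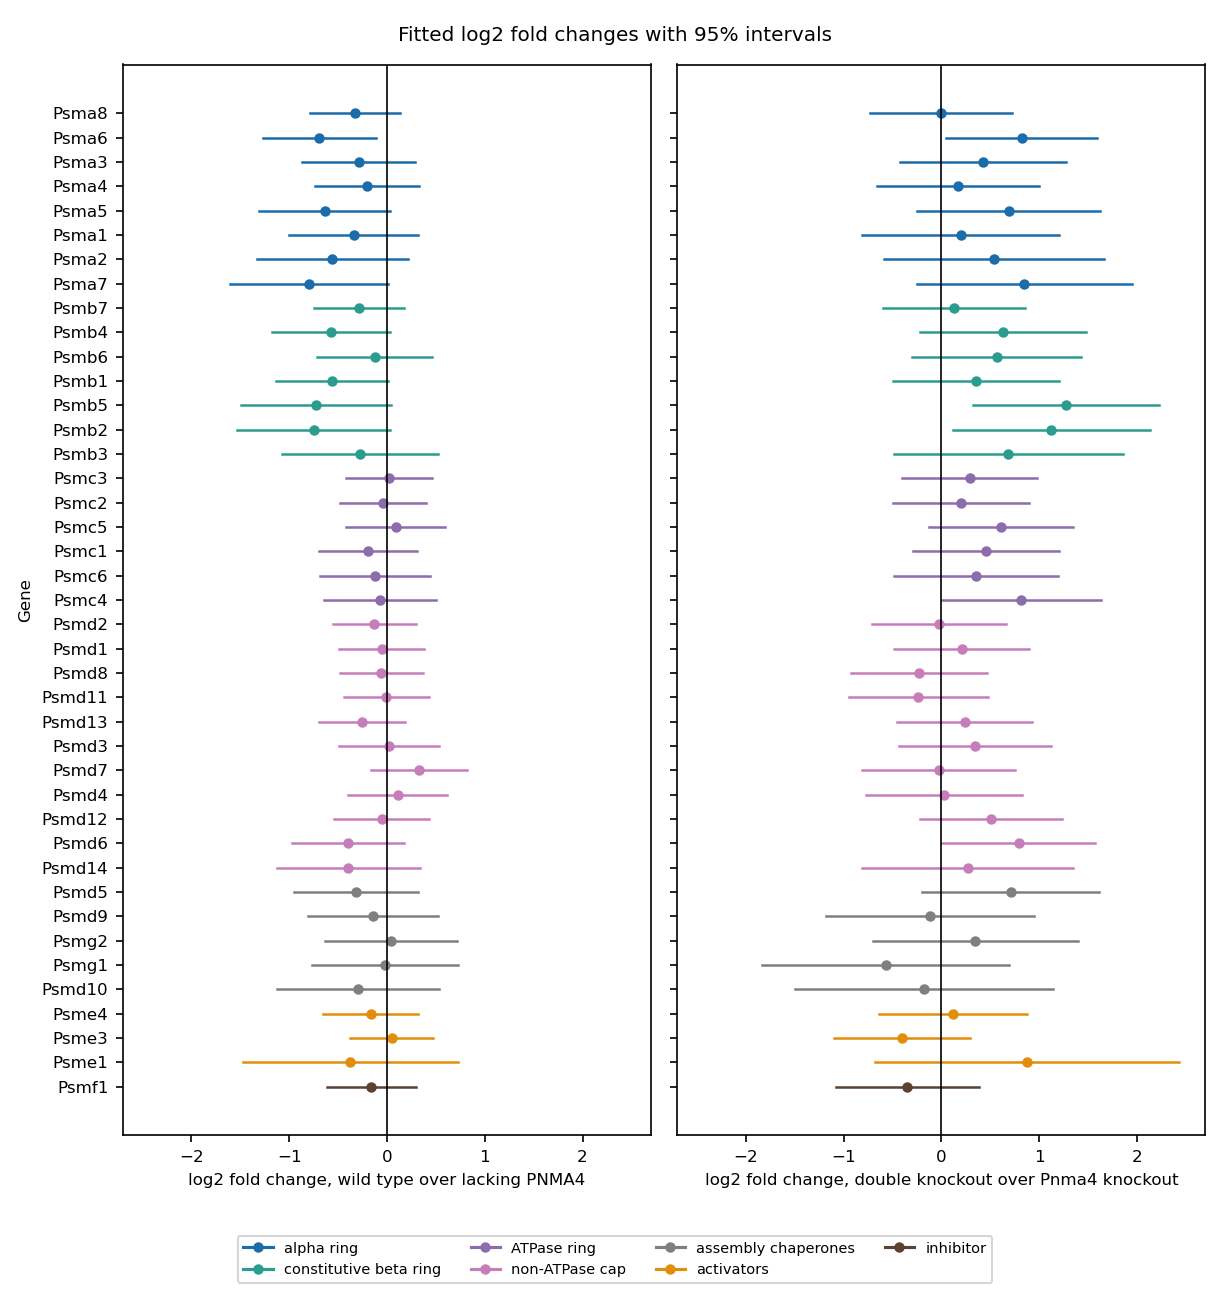
Log2 fold changes from edgeR (points) with 95% intervals (lines) for the 41 tested genes, coloured by subcomplex, with wild type over lacking PNMA4 at left and the double knockout over the Pnma4 knockouts at right. The 2 comparisons share the Pnma4 knockout and double knockout libraries. All 15 core particle points lie below 0 at left, and 14 lie above 0 at right.

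The double knockout lacks Pnma1 as well as Pnma4, and its single library was set against both Pnma4 knockouts in a fit with 3 genotypes, in which it is assumed to vary like the other libraries. The 41 tested genes had a median log2 fold change of 0.35, where all genes had one of −0.01, and 31 were above 0 and 10 below (49.5% and 50.5% of all genes). No member was called by edgeR (lowest adjusted p = 0.557), where 0.0746% of all genes were called, and DESeq2 and limma-voom called 0 as well. At an unadjusted p under 0.05, 5 members were higher and 0 lower, against 3.72% and 2.47% of all genes. DESeq2 gave 1 such member and limma-voom 5, all higher. The share of all genes at that p is given for edgeR alone. The edgeR median of the members was 0.31 without replicate 1 and 0.40 without replicate 2 of the Pnma4 knockouts, and 0.33 without wild-type replicate 1. In the double knockout 7 of 10 Leydig and all 10 tested Sertoli cell markers were also above all other libraries, against 22.8% of all genes. The part of these markers in the values above was not tested.

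This comparison shares the 3 libraries lacking PNMA4 with the first, so its values are not independent of those above. Psmb5 was 2.37-fold higher in the double knockout than in the mean of the Pnma4 knockouts (log2 fold change 1.27, its standard error 0.47, edgeR adjusted p = 0.557), on 38 reads against 19 and 33. Psmb2 was 2.14-fold higher (log2 fold change 1.12, its standard error 0.49, edgeR adjusted p = 0.748), on 29 reads against 16 and 28. Psma6 had a log2 fold change of 0.82 (standard error 0.38, edgeR adjusted p = 0.774). Outside the core particle, Psmd6, a structural part of the lid of the cap, stood at 25.1 CPM in the double knockout, at 14.6 and 14.4 CPM in the Pnma4 knockouts and at 15.2, 9.21 and 16.3 CPM in wild type (log2 fold change 0.79). The ATPase Psmc4 stood at 15.7 CPM against 10.2 and 8.00 CPM in the Pnma4 knockouts and 11.8, 9.85 and 9.83 CPM in wild type (log2 fold change 0.82). Both were highest in the double knockout. The ATPase Psmc5 stood at 27.8 CPM against 17.8 and 18.6 CPM in the Pnma4 knockouts and 27.1, 18.0 and 23.0 CPM in wild type (log2 fold change 0.61), so that wild-type replicate 1 was close to the double knockout. Psma8 and Psme4, the germ cell members, had values of −0.004 and 0.12 (standard errors 0.36 and 0.37). The double knockout was above all 5 other libraries for 13 of 15 core particle genes and 6 of 17 regulatory particle genes, against 22.8% of all genes. It was above them for 20 of the 41 members and below them for 3, against 21.4% of all genes. Wild-type replicate 2 was the lowest of the 6 libraries for 10 of the 15 core particle genes and 5 of the 17 regulatory particle genes, against 16.5% of all genes. Over the Pnma4 knockouts, the double knockout had a log2 fold change above 0 for 14 of 15 core particle genes (median 0.565). The same held for 13 of 17 regulatory particle genes (median 0.27). The summed core particle level of the double knockout was 1.49 times the mean of the other 5 libraries, and that of the regulatory particle 1.11 times. With library totals and no factors, the median of the members was −0.41 and that of all genes −0.76.

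Shares of reads within a library need no scaling between libraries. Core particle reads were 15.0%, 13.8% and 19.5% of the reads of the core and regulatory particles in wild type, 18.6% and 18.9% in the Pnma4 knockouts and 21.7% in the double knockout (95% Wilson interval 20.3% to 23.0%). Wild-type replicate 3 lay among the libraries lacking PNMA4, while wild-type replicates 1 and 2 lay below them. The difference between groups was −3.61 percentage points (two-sided exact permutation p = 0.3, n = 3 each). Psma8 reads were 95.5%, 90.8% and 96.2% of the reads of Psma7 and Psma8 in wild type, 93.6% and 94.2% in the Pnma4 knockouts and 89.5% in the double knockout (interval 84.4% to 93.1%). The groups overlapped, at 94.2% ± 2.94 and 92.5% ± 2.56 (SD, n = 3 each, exact permutation p = 0.5, adjusted p = 1.0 over 13 shares). How reads that hit several genes were counted is not stated in the labels, so the split between near copies such as these is uncertain. Within the alpha ring, Psma8 took 41.7% to 47.4% of reads in the 5 libraries with Pnma1 and 35.3% in the double knockout. As a share of all proteasome reads, the alpha ring took 4.88% ± 0.972 in wild type and 5.93% ± 0.523 in the libraries lacking PNMA4 (SD, n = 3 each, exact permutation p = 0.1, adjusted p = 1.0). The groups did not overlap, by a margin within counting error. Wild-type replicate 1 stood at 5.458% (interval 4.97% to 5.99%) and the first Pnma4 knockout at 5.481% (interval 4.97% to 6.04%). The difference between the group means was −1.05 percentage points, and −0.493 without wild-type replicate 2.

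**Figure D4:**
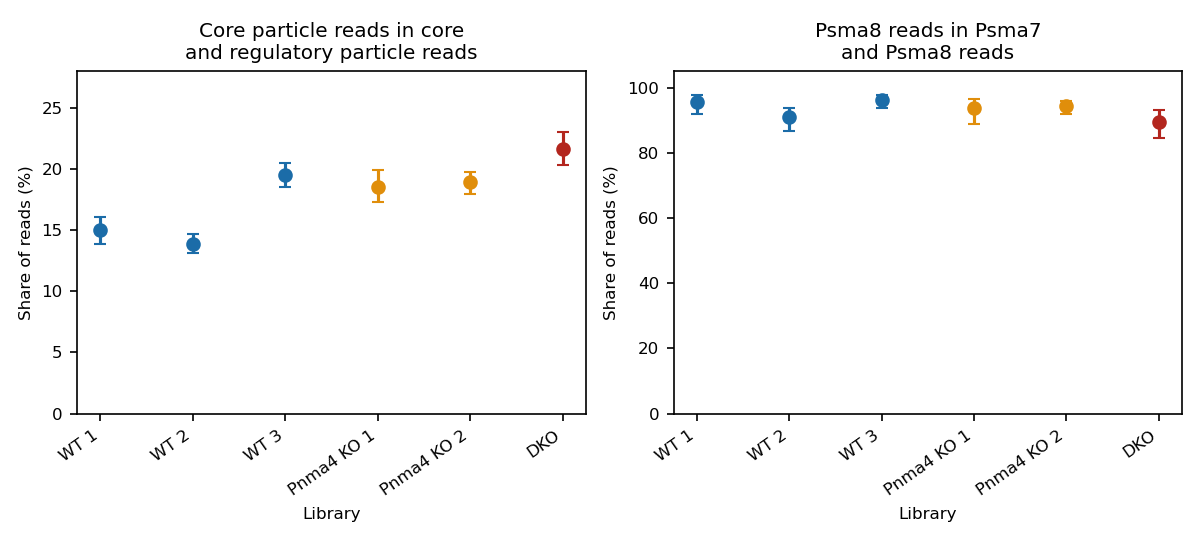
Share of core particle reads among core and regulatory particle reads (left) and of Psma8 reads among Psma7 and Psma8 reads (right), in percent, for each library (blue, wild type, WT; orange, Pnma4 knockout, KO; red, double knockout, DKO), with 95% Wilson intervals that cover counting error only. The left panel runs from 13.8% in wild-type replicate 2 to 21.7% in the double knockout, and the right panel stays between 89.5% and 96.2%.

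Other genes that feed, build or control the proteasome were read from a list of 33 genes of ubiquitin, its activation, shuttle factors and proteasome partners, of which 32 were matched by symbol and tested. None was called in either direction by edgeR (where 0.0224% of all genes were called higher and 0.0373% lower), and 1 was higher at an unadjusted p under 0.05. The groups did not overlap for 3 of the 32, all lower in wild type (Pomp, Ddi1 and Ddi2), where 3.41% of all genes did so. Ddi2, a protease that is known to activate the transcription factor Nfe2l1, stood at 41.0, 46.7 and 53.9 CPM against 54.6, 72.7 and 59.9 CPM (log2 fold change −0.40, edgeR adjusted p = 1.00). Ngly1, which removes sugars from Nfe2l1 before that step, had a log2 fold change of −0.37, and Nfe2l1 itself one of −0.06. The chaperone Pomp and the small cap subunit Sem1, both of the proteasome but named otherwise, had −0.44 and −0.48. Of the genes with the most reads, Ubb, the segregase partner Nploc4 and the shuttle factor Rad23b had log2 fold changes of 0.23, 0.12 and 0.08. The median over the tested genes was −0.10, and 21 were below 0, against 48.0% of all genes. With library totals and no factors that median was 0.24.

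For 28 of the 41 tested members, the 95% interval of the log2 fold change of wild type over lacking PNMA4 lay within 1 of 0, so that a 2-fold difference relative to the bulk of genes was outside the interval. These 28 included 16 of the 17 regulatory particle genes, both Psme4 and Psme3, and 5 of the 15 core particle genes, whose read counts were lower. For the other 13, the interval reached past a 2-fold difference.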

How the data were processed

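RNA counts of 6 immunoprecipitate libraries were used. The deposited counts are whole numbers per gene, which the authors made from reads on GRCm38, and the submitters' processing notes name bcl2fastq 2.20, STAR 2.5.2b, featureCounts and DESeq2. Strand, annotation release and the treatment of reads hitting several genes are not stated in the labels. Groups were taken from the labels, which do not say whether replicates came from separate animals, so p-values measure only the spread between these libraries. The closest pair of libraries still differed by more than sampling noise (chi-square of 8.60 per gene). That pair was wild-type replicate 3 and replicate 2 of the Pnma4 knockouts, and wild-type replicate 1 and replicate 1 of the Pnma4 knockouts gave 8.84. Both pairs cross the groups, so the libraries did not sort by group on this measure.

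The proteasome members and all gene lists were chosen with earlier results of these data known. Counts were tested with edgeR 4.0.16 (quasi-likelihood F test, TMM, filterByExpr with a minimum count of 10 and total of 15) over 13413 genes, with Benjamini-Hochberg adjustment at 0.05. The standard error of a log2 fold change was its size divided by the square root of F. Sums and shares were compared by exact permutation over libraries (two-sided), which cannot give a p below 0.1 with 3 libraries a group. DESeq2 1.42.0, limma-voom with quality weights (limma 3.58.1), other scalings and filters, a replicate block and leaving out each library were alternatives. Values in every library were given for Psma8, Psme4, the inducible beta genes, the gene with the most reads in each subcomplex and up to 6 genes of lowest p in each comparison. Others were chosen after their values were seen. Values of 1 gene of the pathway list are not reported here. Promoter windows, gene positions and motif matches used RefSeq tables of GRCm38.p6, in whose gene table all 49 members were matched. On simulated counts for 13413 genes with 200 changed, the comparison of wild type with lacking PNMA4 recovered 45% of 2-fold and 90% of 4-fold changes. The comparison of the double knockout with the Pnma4 knockouts recovered 7.6% and 57.8%. Wilson intervals cover counting error only.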

Additional observations from a re-analysis of the deposited data

How the results depend on the processing

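No proteasome gene was called in either comparison, and no other pathway gene between wild type and lacking PNMA4, under any of the alternatives run. Of 595 recomputed values, 556 kept their sign and side of the threshold and 39 turned sign, all without passing a test. The cause was not tested. At an unadjusted p under 0.05, the number of members lower in wild type ran from 0 without the double knockout to 8 without wild-type replicate 3. The share of all genes at that p in those fits is not given. With library totals and no factors, the median log2 fold change of the members was 0.139 in the first comparison (Psmb7 0.0289, Psmd2 0.160, Psmd5 0.0345, Psme4 0.148 and Psmf1 0.139), where that of all genes was 0.315. In the second comparison the median was −0.412 (Psmc5 −0.151 and Psme4 −0.636), where that of all genes was −0.764. The sums under that scaling differed by 262 CPM for all members, 153 without Psme4, 58.8 for the ATPase ring, 88.1 for the non-ATPase cap, 2.97 for the chaperones, 120 for the activators and 4.81 for the inhibitor.

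Leaving out each library in turn gave log2 fold changes of −0.193 to 0.136 for Psmc3 and −0.374 to 0.000318 for Psmf1. Psmc3 was at −0.0416 and −0.0109 without replicates 1 and 2 lacking PNMA4. With wild-type replicate 2 and the double knockout both left out, Psmc3 was at 0.191 and Psmf1 at −0.496. With a single library left out, the ATPase sum differed by −32.1 to 18.7 CPM (14.8 and 7.83 without wild-type replicates 2 and 3). In percentage points, the share of Psmb8 differed by −2.49 to 2.28 (0.240 without wild-type replicate 1), that of Psmb9 by −1.04 to 2.45 (−0.615 without wild-type replicate 1) and that of the ATPase ring by −0.451 to 2.47. The non-ATPase cap differed by −0.788 to 3.51, the chaperones by −0.0989 to 0.0739, the activators by −4.35 to 3.27 and the inhibitor by −0.402 to 0.290 (0.0612 and 0.287 without replicate 1 of either group). As a mean of log2 ratios, the Psmb8 difference was 0.423. Psma8 in the double knockout against the Pnma4 knockouts ranged from −0.145 to 0.135 with libraries left out. It was 0.0274 at a minimum count of 50, 0.159 against both genotypes with Pnma1 and −0.764 with library totals and no factors.

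Same-numbered libraries did not deviate together (correlations of 0.04, −0.06 and 0.08 for replicates 1 to 3), so the numbers were not taken as pairs. With the replicate block, 0 members were called, 6 were lower at an unadjusted p under 0.05 (the share of all genes is not given), and the median was −0.199. Calls over all genes in the first comparison numbered 8, against 31 with no filter, 2 at a minimum count of 50, 18 without the double knockout and 19 without it and wild-type replicate 2. In the second they numbered 10, against 16 by DESeq2, 70 by limma-voom, 201 without factors, 31 with no filter, 35 against both genotypes with Pnma1 and 10 to 35 with a library left out. The core particle sum and share, the sum without Psme4 and the removal of 2 libraries together were chosen after the data were seen.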
